A study of Mus musculus with 4 samples.

Results

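Caveolae are flask-shaped pits of the plasma membrane that are abundant in endothelial cells. Caveolins, which sit in the membrane as hairpins, and cavins, which bind from the cytoplasm, build their coat, while EHD proteins and the F-BAR protein Pacsin2 shape and anchor the neck. Plvap closes endothelial caveolae, fenestrae and transendothelial channels with a thin diaphragm. The genes described here are the caveolins Cav1 and Cav2, the cavins Cavin1 (Ptrf), Cavin2 (Sdpr) and Cavin3 (Prkcdbp), Ehd2, Ehd4, Pacsin2 and Plvap, which were chosen by symbol from the probe set annotation of the array. Of these 9 genes, 8 had a probe set with a single symbol, 17 probe sets in all, out of 18194 genes and 34958 probe sets. Pacsin2 had none in the annotation used and has no value here. All 8 measured genes had a signal above 100 in at least 1 population. The set was proposed with results of these arrays known, so its levels are a description.

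The 4 populations were sorted on day 6 from cultures of Runx1(Venus/+) ES cells, a CCE-derived mouse line in which a Venus reporter is driven by the proximal Runx1 promoter, on OP9 stromal cells, and were not otherwise treated. Population 1 was Runx1-/VE-cadherin+/Flk1+, a sort of endothelial cells. Population 2 was Runx1+/VE-cadherin+/CD41-, population 3 Runx1+/VE-cadherin+/CD41+ and population 4 Runx1+/VE-cadherin-/CD41+, which holds blood progenitors. All 4 carry the same heterozygous Runx1 allele and come from a single ES cell line, and OP9 cells are mouse cells whose RNA the array reads as well.

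Each population was hybridised to 1 Affymetrix array, and the deposited values are probe set signals in linear intensity units. A single array gives neither an error nor a test, so all differences are described only, and each gene is read by its brightest probe set (that of highest mean on the log2 scale). Folds and log2 ratios were computed with signals below 100 raised to 100, which makes a fold against such a signal a lower bound. Of all genes, 9468 had a signal above 100 in at least 1 population and serve as background. Their median log2 ratio was 0.00 from population 1 to 2, 0.22 from population 2 to 3 and 0.06 from population 3 to 4. Of the sort markers, VE-cadherin and Runx1 followed their gates. VE-cadherin (Cdh5) signals were 5683, 3946, 4849 and 40.9 in populations 1 to 4, and Runx1 signals 55.3, 358, 1297 and 2440.2. The CD41 gene Itga2b was less sharply divided. Its level in the CD41- population 2 was 1135, against 2418 (population 3) and 1610 (population 4) in the CD41+ sorts. Population 1, whose gate does not name CD41, stood at 667. In sorted cells measured in bulk, fewer cells that express a gene and less RNA per cell cannot be told apart.

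**Figure D1:**
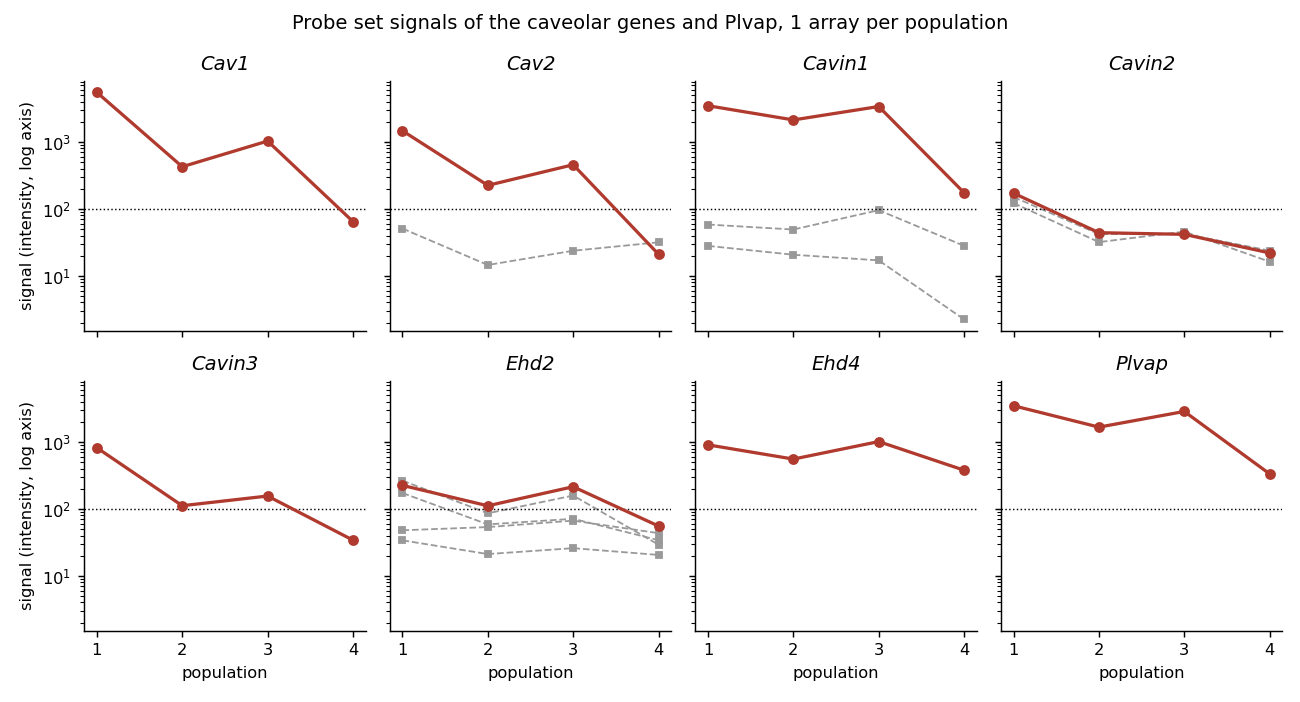
Signal (intensity, log axis) of every probe set of the 8 measured genes by population, 1 array each and no error drawn. Red circles mark the brightest probe set, grey squares the other probe sets and the dotted line a signal of 100. Every red profile is lowest in population 4, and Cav1 spans signals of 5513 (population 1) to 64.7 (population 4).

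Both caveolins were far lower in population 2 than in the Runx1- cells, and both were below 100 in population 4. Cav1, the membrane protein that builds the caveolar coat, had signals of 5513 in population 1, 427 in population 2, 1033 in population 3 and 64.7 in population 4. Population 1 thus stood far above the other 3, and population 3 lay between populations 1 and 2. Cav1 was 12.9-fold lower in population 2 relative to population 1, and of the 9468 background genes 1 had a lower ratio at that step with signals raised to 100. It was 2.42-fold higher in population 3 relative to population 2 and at least 10.3-fold lower in population 4 relative to population 3. Between populations 1 and 4 it was at least 55.1-fold lower, where Cav2 was at least 14.7-fold lower, and these bounds do not rank the caveolins.

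Cav2, which assembles with Cav1 into mixed oligomers, followed the same order. Its signals were 1471, 225, 457 and 21.0 in populations 1 to 4, which is 6.54-fold lower in population 2 relative to population 1, 2.03-fold higher in population 3 relative to population 2 and at least 4.57-fold lower in population 4 relative to population 3. Over the 4 populations, the log2 signals of Cav1 and Cav2 had a correlation of 0.998, a description of 4 points that share the same arrays. The other Cav2 probe set never exceeded 50.9 and was highest in population 1. The size of the difference between populations 2 and 3 depended on the scaling of the arrays. The log2 ratio at that step ranged from 0.85 to 1.65 for Cav1 and from 0.60 to 1.40 for Cav2 over the deposited scale and 4 other scalings, always above 0.

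The promoters of the caveolin genes and other members were searched for letters bound by factors of early blood development. Some of the matches are shown. Cav1 and Cav2 are neighbours on chromosome 6 whose profiles run together. The RefSeq table of promoters on GRCm38.p6, which hold 250 bases before and 50 after each start site, had 11 entries for 7 of the 9 genes, without Cavin3 and Plvap, and the Cavin1 entries overlap each other. Both strands were searched for the RUNX motifs TGTGGT as well as TGCGGT, for the GATA motifs AGATAA as well as TGATAA, and for the ETS core GGAAG, none of which contains another. In the windows below, which run along the gene's own strand, capitals mark the match, with CTTCC as the reverse complement of GGAAG. They are a selection. Further GGAAG matches at Cav1, Cav2, Cavin2, Ehd4 and Pacsin2 and the AGATAA match at Pacsin2 are not printed.
Cav1, TGTGGT after the downstream start site, chr6:17307658-17307687, plus strand: ggtaccgaggggTGTGGTgtcctccgctcc
Cav1, TGATAA before the downstream start site, chr6:17307412-17307441, plus strand: ccagagtgatctTGATAAtgttgaaaggga
Cav2, GGAAG in reverse, chr6:17280967-17280996, plus strand: cctccagaccttCTTCCagtacacacacct
Cavin2, GGAAG, chr1:51289075-51289104, plus strand: tttttttttaagGGAAGgggtgtaggaaag
Ehd4, GGAAG, chr2:120154655-120154684, minus strand: aacgcccaatgaGGAAGgacctgagatcgc
TGTGGT was found in 1 of the 11 entries, that of the downstream Cav1 start site, and in 16.8% of all 32851 promoters. TGCGGT was found in 0 of the 11 and in 6.45% of all promoters. TGATAA occurred in the same Cav1 entry and AGATAA in 1 Pacsin2 entry, against 9.05% and 11.2% of all promoters. GGAAG was found in 6 of the 11 entries and in 71.4% of all promoters. These matches describe the letters of short windows and carry no measurement of binding.

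Cavin1, the cavin without which caveolae do not form, differed from the caveolins at the first step. Its signals were 3482 in population 1, 2137 in population 2, 3390.3 in population 3 and 174 in population 4, so that the 3 VE-cadherin+ populations lay within 1.63-fold of one another and population 4 far below them. Cavin1 was 1.63-fold lower in population 2 relative to population 1, where Cav1 was 12.9-fold lower. In population 3 it stood at 97.4% of its population 1 signal, and Cav1 at 18.7% of its own. With arrays centred on their medians these shares were 81.2% and 15.6%, and with arrays scaled on the hybridisation controls 122% and 23.5%. At the last step Cavin1 was 19.4-fold lower, and 30 background genes had a lower ratio with signals raised to 100. The other 2 Cavin1 probe sets had no signal above 100, and averaging all 3 probe sets gave a log2 ratio of -0.84 between populations 1 and 4 in place of -4.32. The value of -0.84 is a bound, since the averaged population 4 signal lay below 100.

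Cavin3, a cavin that binds protein kinase C delta, resembled the caveolins at the first step. Its signals were 820.0, 112, 156 and 34.2 in populations 1 to 4. It was 7.33-fold lower in population 2 relative to population 1 and 1.40-fold higher in population 3 relative to population 2. The log2 ratio of 0.48 behind the latter was 0.06 with arrays centred on their medians, 0.08 on poly-A controls and 0.13 with quantile normalisation. All 3 were smaller than the 0.17 by which probe sets of a gene typically differed. With arrays scaled on the hybridisation controls the ratio was 0.81. With a signal of 156 in population 3, the step to population 4 could be measured only as at least 1.56-fold lower. Population 1 alone stood clearly above 100.

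Cavin2, which helps to bend the membrane and to load cavins onto caveolae, was dim throughout. Its signals were 172, 44.2, 41.7 and 22.0, and it exceeded 100 in population 1 only. It was at least 1.72-fold lower in each of the other 3 populations relative to population 1. The other 2 probe sets of Cavin2 had 150.4 and 122 in population 1 and between 16.3 and 45.8 in populations 2 to 4. With signals raised to 50 in place of 100, the ratio between populations 1 and 2 became -1.78 in place of -0.78 on the log2 scale. Levels of Cavin2 in populations 2, 3 and 4 were all below 100 and are not ordered here.

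Ehd2 and Ehd4 encode membrane-remodelling ATPases, and Ehd2 is found at the caveolar neck. Ehd2 had signals of 225, 111, 215 and 55.5 in populations 1 to 4. Populations 1 and 3 were close to each other on this probe set, but lay at 265 and 158 on a second and at 173 and 71.3 on another, and population 4 lay below 100 on each. Ehd2 was 2.02-fold lower in population 2 relative to population 1, 1.93-fold higher in population 3 relative to population 2 and at least 2.15-fold lower in population 4 relative to population 3. Of its 5 probe sets, 3 exceeded 100, and on the deposited scale all 3 were highest in population 1. Their signals lie near that limit, and levels below it are not ordered.

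Cavin1, Ehd4 and Plvap had signals above 100 in every population. Of these, Ehd4 differed least between populations 1 and 4 on the brightest probe sets. With the dim Cavin1 probe sets averaged in, the Cavin1 ratio is only a bound and is not ranked against that of Ehd4. Ehd4 had signals of 907 in population 1, 556 in population 2, 1015 in population 3 and 379 in population 4. It was 1.63-fold lower in population 2 relative to population 1, 1.83-fold higher in population 3 relative to population 2 and 2.68-fold lower in population 4 relative to population 3. On the deposited scale population 3 was above population 1, at 112% of it, but this turned to 93.3% with arrays centred on their medians and 90.3% with quantile normalisation, and to 140.1% with arrays scaled on the hybridisation controls. Between populations 1 and 4 Ehd4 was 2.39-fold lower, and this was under 2-fold with arrays scaled on the hybridisation controls (log2 ratio -0.93).

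Plvap, the diaphragm protein, followed Cavin1 more closely than Cav1. Its signals were 3484 in population 1, 1669.5 in population 2, 2864 in population 3 and 334 in population 4, where it was still above 100. It was 2.09-fold lower in population 2 relative to population 1, 1.72-fold higher in population 3 relative to population 2 and 8.57-fold lower in population 4 relative to population 3. Population 4 against population 1 was 10.4-fold lower. With signals raised to 100 and each log2 profile centred on its own mean, the root mean square difference between Plvap and Cavin1 was 0.51. Between Plvap and Cav1 it was 1.05.

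**Figure D2:**
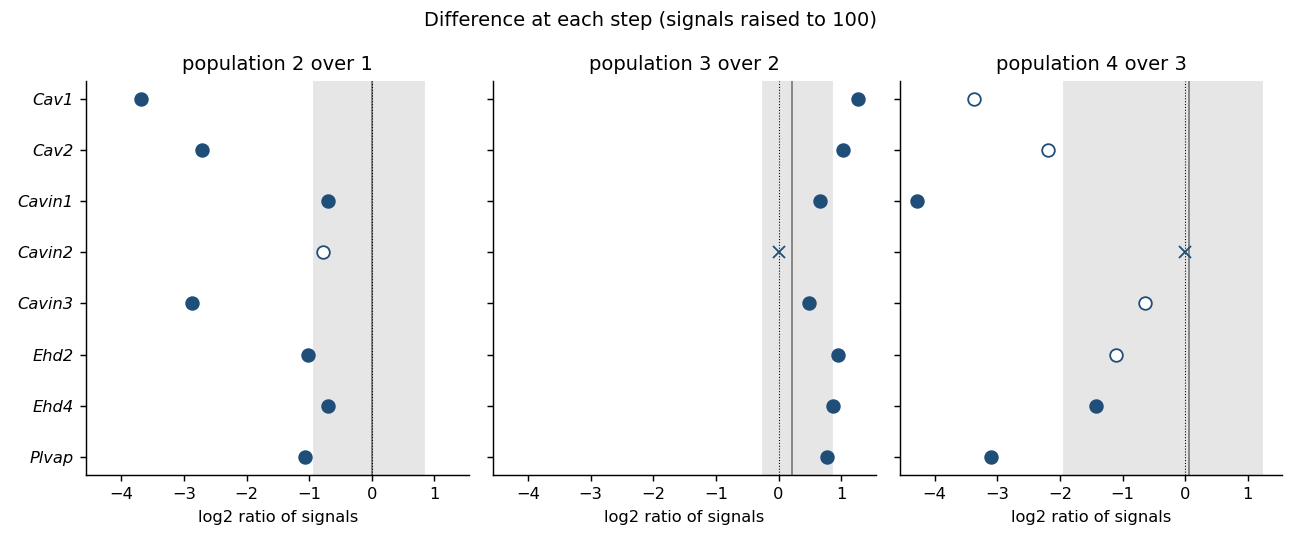
Log2 ratio of signals (raised to 100) at the steps from population 1 to 2, 2 to 3 and 3 to 4 for the 8 measured genes, 1 array per population. Filled circles are measured ratios, open circles bounds against a signal below 100 and crosses pairs with both signals below 100, and grey bands hold the central 90% of 9468 genes with their median as a line. Cav1, Cav2 and Cavin3 lie at -3.69, -2.71 and -2.87 at the first step, and Cavin1 at -4.28 at the last.

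Across the set, the genes differed in the step at which they were lower. Between populations 1 and 2, 5 of the 8 genes were at least 2-fold lower, where 4.19% of background genes were, and 3 (Cav1, Cav2 and Cavin3) were at least 4-fold lower, where 0.665% were, and 0 were at least 2-fold higher (2.92%). Ehd2 and Plvap were close to the 2-fold limit, and with arrays centred on their medians only the other 3 passed it. Between populations 3 and 4, 6 of the 8 were at least 2-fold lower (12.2% of background genes) and 4 at least 4-fold lower (4.65%), namely Cav1, Cav2, Cavin1 and Plvap, and 0 at least 2-fold higher (7.94%). Comparing populations 1 and 4, 7 of the 8 were at least 2-fold lower (12.9%) and 5 at least 4-fold lower (5.67%), with 0 at least 2-fold higher (22.4%) and a median log2 ratio of -3.21, where the background median was 0.36. Genes for which both signals lie below 100 have a log2 ratio of 0 and are counted in these shares. Since the genes were chosen with these arrays in view, the shares are given for reference.

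Between these steps, 2 of the 8 genes, Cav1 and Cav2, were at least 2-fold higher in population 3 relative to population 2, where 3.11% of background genes were, and 0 were at least 2-fold lower (0.253%). Neither passed 2-fold with arrays centred on their medians or quantile normalised, and 6 of the 8 did after scaling on the hybridisation controls. In 7 of the 8 genes the signal was lower in population 2 than in populations 1 and 3, and in 41.1% of background genes. The exception was Cavin2, below 100 in populations 2 and 3. The order of populations 1, 3, 2 and 4 was found for 6 of the 8 genes and for 9.43% of background genes. The other 2 were Cavin2 and Ehd4. Cavin3 is counted in both, with a difference between populations 2 and 3 that nearly vanished under 3 of the scalings. That difference was larger with arrays scaled on the hybridisation controls. That order rests on the scaling for Cavin1, Ehd2 and Plvap, whose population 3 signals stood at 97.4%, 95.4% and 82.2% of population 1 as deposited and at 122%, 119% and 103% with arrays scaled on the hybridisation controls. All 8 had their lowest signal in population 4 (for Cavin2 among signals below 100), as did 27.6% of background genes.

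**Figure D3:**
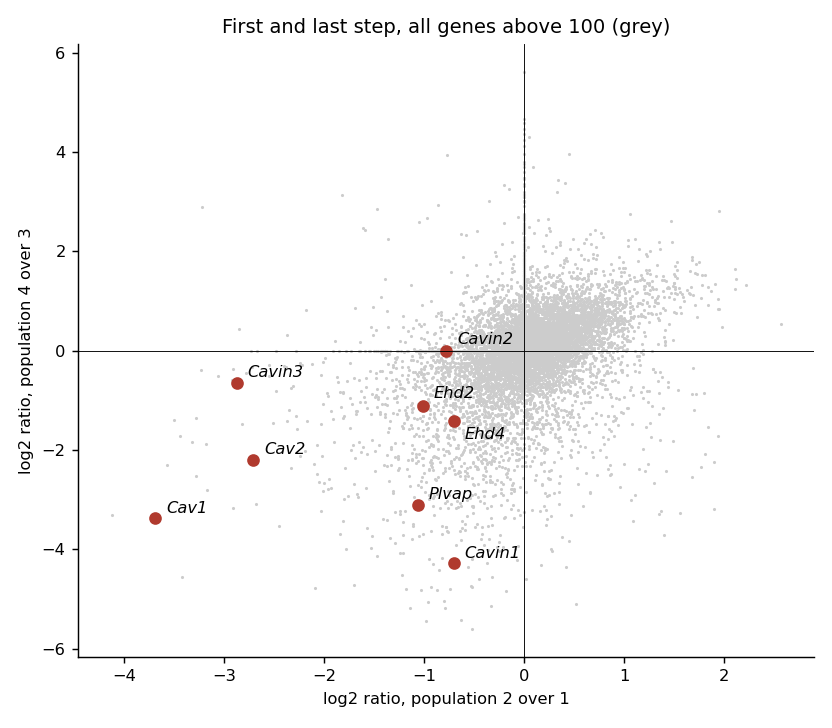
Log2 ratio of population 2 over population 1 (horizontal axis) and of population 4 over population 3 (vertical axis), with signals raised to 100 and 1 array per population. Grey points are 9468 genes with a signal above 100, and red points the 8 measured caveolar genes. Cavin1 and Plvap lie low, at -0.70 and -1.06 on the horizontal axis, while Cavin3 lies far to the left at -2.87. Its vertical position of -0.64 is a bound, since its population 4 signal was below 100, and it could lie lower. The vertical positions of Cav1, Cav2 and Ehd2 are bounds as well, as is the horizontal position of Cavin2. Cavin2 lies at 0 vertically because both of its signals were below 100.

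The profiles of 6054 genes with a signal of at least 400 were set beside those of 4 members. The measure was the root mean square difference of centred log2 signals, raised to 100, over the 4 populations. The genes nearest to Cav1 were Tmem255a, Esm1, Sparcl1, Emcn and Depp1, with differences of 0.31 to 0.43. Emcn, an endothelial sialomucin, had signals of 2498, 258, 571 and 7.28 in populations 1 to 4. Those nearest to Plvap were Cd276, Rnf144a, Anxa6, Prkch and Pdgfb, with differences of 0.07 to 0.10. The growth factor gene Pdgfb had signals of 1350 in population 1, 551 in population 2, 1027 in population 3 and 109 in population 4. Nearest to Ehd4 were Cast, Plod3, Orai1, Pitpnc1 and Ssh1, at 0.02 to 0.08. For Cavin2 they were Col6a3, Cdr2, Cyth1, Myh10 and Skil, at 0.08 to 0.12, where the Cavin2 profile is flattened by the limit of 100. With Cav1 and Plvap 1.05 apart on this measure, lists at these differences could not share a gene. A likeness over 4 arrays describes shape only.

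Relatives of the coat proteins were mostly dim. Of 6 such genes with a probe set, 3 had a signal above 100, and only Ehd1 was bright enough for a 2-fold difference to be seen. Ehd1, an ATPase of endocytic recycling, had signals of 739, 850.0, 932 and 1219 in populations 1 to 4, opposite in direction to Ehd2 and Ehd4 between populations 1 and 4. Ehd3 had 130.1 in population 1 and was below 100 in the others, and Pacsin3 reached 100.3 in population 3, so that neither could show a 2-fold difference with signals raised to 100. The muscle genes Cav3 and Cavin4 and the neuronal gene Pacsin1 stayed below 100 in all populations.

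Genes whose products work with caveolae were more varied. Of 15 listed partners, 10 exceeded 100. Comparing population 4 with population 1, 5 of these were at least 2-fold lower (12.9% of background genes) and 1 at least 2-fold higher (22.4%). Their median log2 ratio was -1.28. The endothelial nitric oxide synthase gene Nos3, whose product is held inactive by caveolin 1, stood at 1827, 1191 and 1072 in populations 1 to 3 and below 100 in population 4. Nos3 was 1.53-fold lower at the first step and at least 10.7-fold lower at the last. Gpihbp1, which carries lipoprotein lipase across capillary endothelium, had 651, 125, 265 and 9.26, in the order of Cav1. Filip1l, a filamin A interacting protein, was at least 8.60-fold lower and the BMP receptor gene Bmpr2 3.36-fold lower in population 4 relative to population 1. Flna, Dnm2, Src and Flot1 differed by less than 2-fold between these populations. The prostacyclin synthase gene Ptgis went another way at the first step, with 299, 797, 533 and 57.5, and was 2.67-fold higher in population 2 relative to population 1. The flotillin gene Flot2, a scaffold of membrane microdomains apart from caveolae, had 556, 424, 559 and 1289 and was 2.32-fold higher in population 4 relative to population 1.

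Clathrin-coated pits, the other main route of coated endocytosis, served as a comparison. Of 22 listed genes 20 exceeded 100, and their log2 ratios between populations 1 and 4 had a median of -0.23, between that of the caveolar genes and that of all genes. Of the 20, 3 were at least 2-fold lower (12.9% of background genes) and 0 at least 2-fold higher (22.4%). The 3 were the cargo adaptor gene Dab2 with signals of 752, 135, 88.1 and 39.1, the actin linker Hip1 with 750.2, 407, 335 and 57.4 and the epsin Epn2 with 604, 654, 609 and 108. Eps15, a scaffold of the pit, had 614, 606, 647 and 1175. Dab2, Hip1 and Epn2 were all at least 4-fold lower, so that 3 of the 20 passed that limit, where 5.67% of background genes did. Most of the clathrin list thus stayed within 2-fold. Its count at least 2-fold lower was near the background share, but its 4-fold count was above it and its count of higher genes below it.

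**Figure D4:**
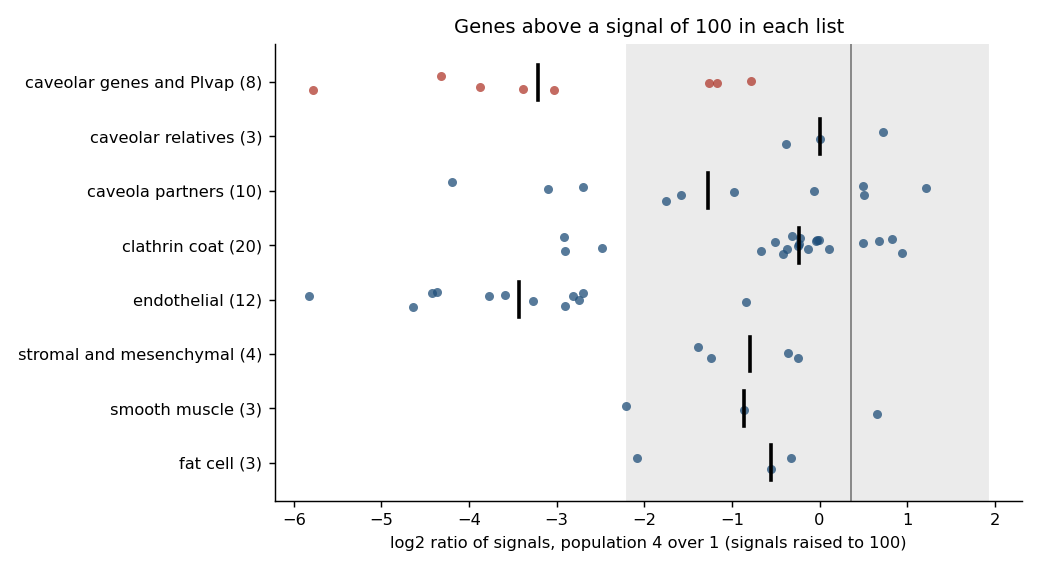
Log2 ratio of population 4 over population 1 (signals raised to 100) for genes above a signal of 100 in each list, with their number in brackets and 1 array per population. Points are genes, black bars list medians, and the grey band and line give the central 90% and the median of 9468 genes. The caveolar genes have a median of -3.21, the clathrin coat genes of -0.23 and the endothelial markers of -3.43.

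Markers of endothelial and of other cells moved as well. All 12 endothelial markers exceeded 100. In population 4 relative to population 1, 11 were at least 2-fold lower (12.9% of background genes), with a median log2 ratio of -3.43. At the first step their median was -0.64 and 5 were at least 2-fold lower (4.19% of background genes). Their summed signal was 31384, 20797, 25565 and 3068 in populations 1 to 4, while that of the 8 caveolar genes was 16075, 5282, 9172 and 1085. These 5, named after their values were seen, were Emcn at 10.3%, Robo4 at 19.5%, Cldn5 at 25.6%, Sox18 at 43.3% and Pecam1 at 49.1% of their population 1 signals in population 2, where Cav1 stood at 7.75%, Cav2 at 15.3% and Cavin3 at 13.6%. The sort markers Cdh5 and Flk1 (Kdr) stood at 69.4% and 76.6% there, and Tek at 129.6%. Endothelial markers thus spread over a range that took in the shares of Cav2 and Cavin3, with Emcn below both and Cav1 below Emcn. The part of endothelial content in these differences was not tested. The summed signal of the 12 blood markers went from 986 in population 1 to 52169 in population 4. Globin genes weigh heavily in the latter, with Hbb-bh1 at 15940 and Hba-x at 10684, and Itga2b at 667 in the former. Of the 11 blood markers above 100, 10 were at least 2-fold higher in population 4 relative to population 1 (22.4% of background genes).

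Stromal, smooth muscle and fat cells also carry caveolae, and OP9 cells are stromal, so their markers were read in the same arrays. Of 11 stromal and mesenchymal markers with a probe set 4 exceeded 100, and their summed signal over all 11 was 3321, 2005, 1803 and 1485 in populations 1 to 4. The 2 brightest, Col1a2 with 1988, 1132, 969.9 and 843 and Col3a1 with 658, 334, 376 and 251, were 1.76-fold and 1.97-fold lower at the first step. Pdgfrb had 250, 271, 159 and 194 and was 1.08-fold higher at that step. Postn exceeded 100 in population 1 only, at 118. The other 7 were below 100 in every population, with Dcn at or below 14.8 (named after its values were seen). The fat cell markers, 3 of 4 above 100, summed to 988, 438, 572 and 439, with Fabp4 at 425, 195, 206 and 90.5 and Lpl at 363, 116, 256 and 289. Lpl was 3.12-fold lower at the first step and 2.20-fold higher at the second, a dip in population 2 like that of Cav1 and Cav2. The 6 smooth muscle markers, 3 above 100, summed to 2009.7, 2059, 1392 and 1210.2. The stromal and fat cell sums were thus highest in population 1, as were the caveolin signals, and Fabp4 was 2.18-fold lower at the first step. Their part in the caveolin signals was not tested.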

How the data were processed

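RNA of 4 populations sorted on day 6 was measured on 1 Affymetrix mouse genome array each. The authors deposited probe set signals as linear intensity values, for which their processing notes name MAS5 and GCOS 1.3. The scaling target and detection calls are not given in the sources used here. Array precision is limited by having 1 array per population.

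Of 45101 probe sets, 34958 had 1 gene symbol, 932 several and 9211 none. Symbols came from the array annotation, and GRCm38.p6 gene records, matched by gene ID, changed 0 of them. Each of 18194 genes was read by its brightest probe set, by the mean of log2 values (signals under 1 set to 1). Signals were raised to 100 before ratios. Groups came from the sample titles. The genes and lists were chosen with earlier results of these data known. The text could name all 9 genes, relatives and partners above 100, up to 4 clathrin genes by size of difference, up to 4 markers per list by signal with the sort markers, and 5 genes of most similar profile. Exceptions are marked.

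As alternatives, arrays were centred on their medians, quantile normalised or subjected to scaling on hybridisation or poly-A controls, signals were raised to 50 or 200, and probe sets were averaged or shared ones left out. Ratios were tested on simulated data. Python 3.11.15, pandas 2.3.3, numpy 2.4.6 and matplotlib 3.10.9 were used.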

Additional observations from a re-analysis of the deposited data

How the results depend on the processing

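No paired analysis was possible because each population has 1 array. Over 6780 pairs of a gene's probe sets log2 ratios of the same gene differed by a median of 0.17 to 0.29 by comparison. Differences below that median are not counted as changes here, except in the counts of population orders, which took the signals with no such limit. The median log2 ratio of all genes between populations 1 and 2 moved from 0.00 to 0.16 after centring, and between populations 2 and 3 from 0.22 to -0.12 after centring and to 0.57 on hybridisation controls, so that ratios of the members are to be read against these shifts. No member ratio changed sign where it was at least 2-fold. Of 256 single-gene values under the alternatives, 186 stayed within that difference and 70 moved. From population 1 to 2, 5 genes were at least 2-fold lower, against 3 after centring on the array median or scaling on poly-A controls, and the median log2 ratio of -1.04 was -1.42 with signals raised to 50. From population 2 to 3, 2 genes were at least 2-fold higher with a median of 0.82. This became 0 genes and 0.40 after centring, 0 and 0.57 after quantile normalisation, 0 and 0.42 on poly-A controls, 6 and 1.20 on hybridisation controls, and 1 and 0.47 when probe sets were averaged. From population 3 to 4, 6 genes were at least 2-fold lower with a median of -1.81, which was -2.53 with signals raised to 50, -1.31 with signals raised to 200, and 3 genes and -0.73 when probe sets were averaged. From population 1 to 4 the median of -3.21 was -3.71 with signals raised to 50, -2.46 with signals raised to 200 and -1.36 when probe sets were averaged. That average includes the 5 probe sets of Cav2, Cavin1 and Ehd2 that never exceed 100, which makes their ratios smaller. Ehd2 then had a log2 ratio of -0.15 from population 1 to 2 and from population 1 to 4, and was no longer at least 2-fold lower in any comparison. Leaving out probe sets shared between transcripts changed none of these counts.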

Other observations

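The caveolin genes lie next to each other on chromosome 6, with no protein-coding gene between them and 25.15 kb between the Cav2 start site and the first Cav1 start site. Of 4 neighbours, taken by position after the caveolin values were known, Tes and Capza2 were above 100 in every population. Tes, a focal adhesion gene on the Cav2 side, had signals of 902, 686, 744 and 185 in populations 1 to 4, 1.32-fold lower from population 1 to 2 and 4.02-fold lower from population 3 to 4. Capza2, which encodes an actin capping protein subunit, had 2506, 2327, 2538 and 2248. The receptor gene Met, next to Cav1, stayed below 100 in all populations, with 78.3 in population 1 and 1.63 in population 4, and Tfec, beyond Tes, had 139, 78.6, 237 and 42.3. Met and Tfec were too dim for a 2-fold difference to show from population 1 to 2 with signals raised to 100. At that step Capza2 was 1.08-fold lower, where Cav1 and Cav2 were 12.9-fold and 6.54-fold lower.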
